A study of Homo sapiens with 11 samples.

Results

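Expression of 10 genes for calcium-binding or sugar-binding proteins of the membrane and cytoplasm was followed in human embryonic stem cells: the annexins ANXA1, ANXA2, ANXA3, ANXA5 and ANXA6, the S100 proteins S100A4, S100A6, S100A10 and S100A11, and the galectin LGALS1. They were taken by gene symbol, and all 10 were present among the 23287 genes of both deposited tables. They had been picked with their shRNA differences in the naive cultures known, so those differences are described here without a test. The study sequenced RNA from 11 cultures, 1 library per group. In 9 of them the established lines H1 or H7 had been infected with a lentivirus carrying a short hairpin RNA (shRNA) and were collected at day 5. The shRNA was a control, one named uCCNE1 or one named pCCNE1, the latter against a CCNE1 (cyclin E1) transcript with primate-specific splicing. Gene-level values do not separate the CCNE1 transcripts. Each was used in primed H1 cells, in H7 cells in the naive medium 5iLA and in H1 cells in the naive medium t2iGo. The other 2 libraries came from H7 cells without treatment, primed or in 5iLA. The shRNA infection is thus shared by all 9 libraries of the main table, the controls included, and the 5iLA and t2iGo cultures differ in cell line as well as in medium.

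Annexins are proteins that bind acidic membrane lipids when calcium rises, and they take part in membrane repair, vesicle traffic and the link between membrane and cytoskeleton. S100 proteins are small calcium sensors that work as dimers and act through partners. S100A10 is the exception that no longer binds calcium and forms a complex with ANXA2 at the plasma membrane, where it also binds AHNAK and tissue plasminogen activator, and S100A11 is a known partner of ANXA1. LGALS1 encodes galectin-1, a secreted lectin that binds galactose-containing sugars on the cell surface. Many of these genes are strongly expressed in fibroblasts and epithelia.

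RefSeq promoter windows (build GRCh38.p14, 250 bases before to 50 after a start) were found for 9 of the 10 genes. The 250 bases before the start are printed for a pair of annexins that were higher in t2iGo than in primed cells, for the partner of one of them, and for the S100 gene that was nearly silent in the 5iLA shRNA libraries. Capitals mark matches, on either strand, to the letters TGANTCA (AP-1), GGAATG (TEAD), GGGCGG (GC box) or to the TATA box of the core promoter, searched as TATAAA. The windows lie at chr9:73151615-73151864 (plus strand, ANXA1), chr15:60397987-60398236 (minus strand, ANXA2), chr1:151993860-151994109 (minus strand, S100A10) and chr1:153545807-153546056 (minus strand, S100A4). Each reads 5′ to 3′ along its gene.
ANXA1: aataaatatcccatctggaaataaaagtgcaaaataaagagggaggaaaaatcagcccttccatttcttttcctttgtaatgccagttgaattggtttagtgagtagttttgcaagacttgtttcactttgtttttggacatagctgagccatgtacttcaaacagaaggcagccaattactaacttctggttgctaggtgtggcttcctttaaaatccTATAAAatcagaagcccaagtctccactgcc
ANXA2: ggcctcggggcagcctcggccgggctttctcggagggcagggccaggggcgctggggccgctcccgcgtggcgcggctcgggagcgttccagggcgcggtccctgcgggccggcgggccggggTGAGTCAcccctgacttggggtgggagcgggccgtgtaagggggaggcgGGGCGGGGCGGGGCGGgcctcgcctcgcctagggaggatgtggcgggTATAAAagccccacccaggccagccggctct
S100A10: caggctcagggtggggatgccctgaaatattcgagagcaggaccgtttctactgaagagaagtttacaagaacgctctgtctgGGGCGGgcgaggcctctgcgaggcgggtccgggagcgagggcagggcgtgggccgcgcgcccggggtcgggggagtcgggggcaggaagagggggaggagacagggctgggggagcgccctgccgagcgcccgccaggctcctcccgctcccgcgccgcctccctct
S100A4: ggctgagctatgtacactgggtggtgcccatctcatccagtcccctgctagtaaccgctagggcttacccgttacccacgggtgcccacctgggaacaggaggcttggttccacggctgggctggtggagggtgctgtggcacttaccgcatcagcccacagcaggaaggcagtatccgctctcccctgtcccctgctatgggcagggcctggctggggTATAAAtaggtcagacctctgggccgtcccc

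The windows differ in kind. Over the whole window of 300 bases the ANXA1 promoter had 0 CpG pairs and 37.7% G and C, and 3.96% of the 35116 promoters in the table had as few CpG pairs. S100A4 had 8 CpG pairs, whereas ANXA2 and S100A10 had 32 each, above the upper quartile of 28 over all promoters. A TATA match was present for ANXA1, ANXA2 and S100A4, and 11.5% of all promoters held one. ANXA2 alone of the 10 windows of these genes held an AP-1 match, which 7.71% of promoters have. It also held 3 overlapping GC box matches, a motif in 45% of promoters, and S100A10 held 1. No window of these genes held the TEAD letters, present in 14% of promoters. The other windows had 36 (ANXA5), 31 (S100A6), 25 (ANXA3), 22 (S100A11) and, for the pair of starts of ANXA6, 25 and 10 CpG pairs. A match is a description of letters and says nothing about binding.

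Values are RPKM, reads per kilobase of transcript scaled by library size, as given by the authors. Estimated depth lay between 18.4 and 22.7 M reads for primed H1, between 11.1 and 16.1 for 5iLA H7, between 6.17 and 13.6 for t2iGo H1, and at 13.03 and 23.8 for the untreated pair. The primed H1 libraries sum to 341088 to 357685 RPKM and the others to 139202 to 234788, so differences between cultures are also given after median-ratio scaling, which sets the typical gene equal between libraries. The targeted gene CCNE1 stood below the control of its culture in 6 of 6 knockdown libraries, at 5.25 to 10.5 RPKM against 9.65 to 14.1. The t2iGo libraries, labelled naive, lacked naive markers. The 10 naive markers summed to between 455 and 820 RPKM with shRNA in 5iLA, to between 49.9 and 87.1 for primed H1 and to between 4.68 and 6.72 for t2iGo, where DPPA5 was listed at 0.138, 0 and 0. Nearly all of the primed H1 sums was ZFP42, at 51.0, 83.0 and 45.8 RPKM (control, uCCNE1, pCCNE1), which was at most 0.887 RPKM in t2iGo. Endoderm markers summed to between 97.6 and 160 RPKM for t2iGo and to at most 9.22 in the other shRNA libraries, so t2iGo below names the medium only.

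**Figure D1:**
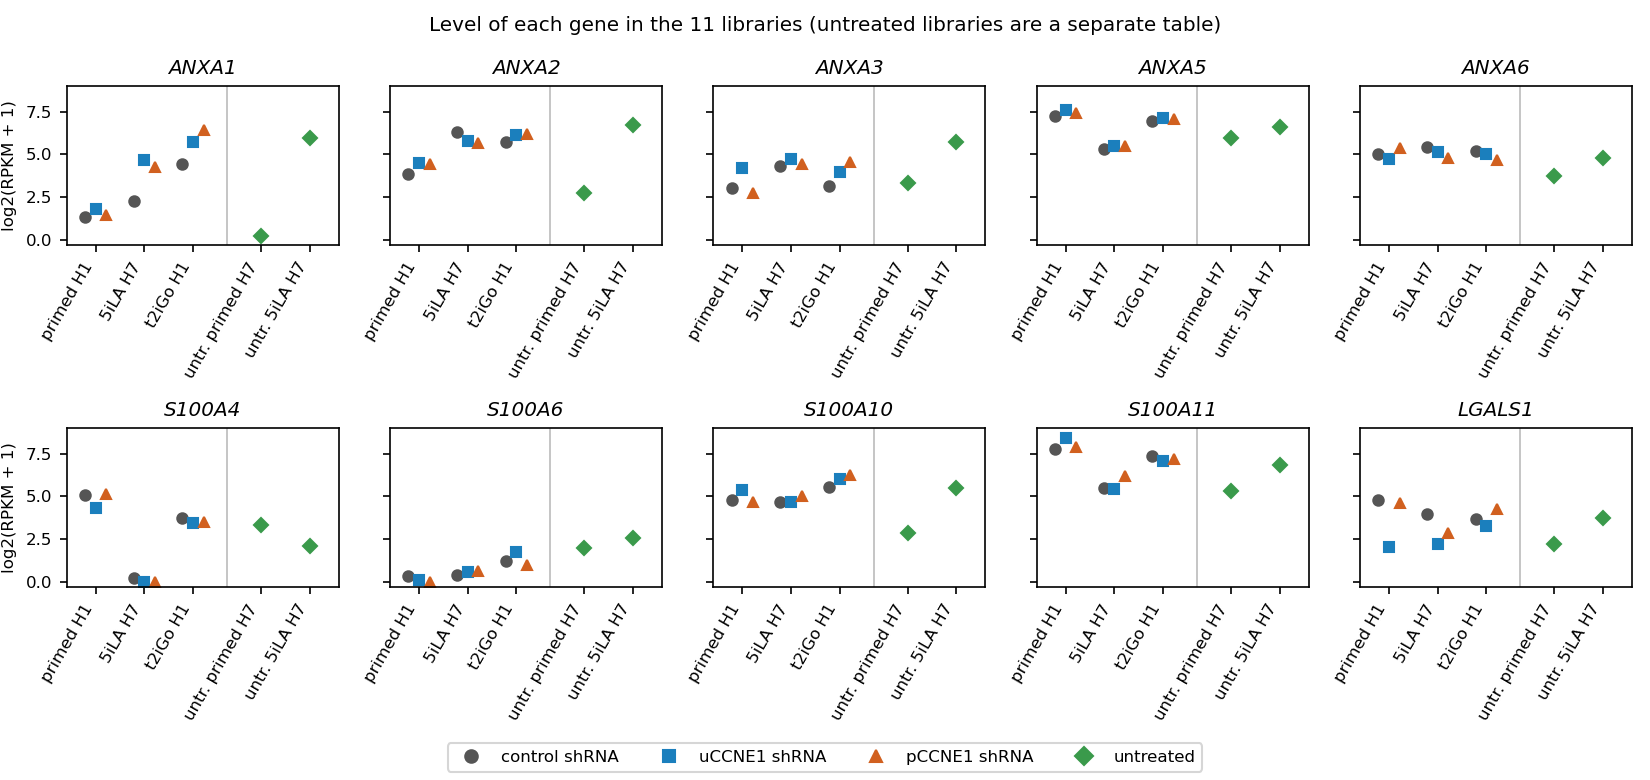
Level of each of the 10 genes, as log2(RPKM + 1) on the vertical axis, in each of the 11 libraries. Circles are control, squares uCCNE1 and triangles pCCNE1 shRNA, with 1 library each, and diamonds right of the grey line are the untreated libraries of the separate table. ANXA1 is lowest in primed cells, and S100A4 is at or near 0 in the 5iLA shRNA libraries.

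The order of the 10 genes by level changed between cultures. Compared per length, as RPKM, S100A11 and ANXA5 stood first and second in primed H1 (217 to 341 and 151 to 192 RPKM) and in t2iGo H1 (135 to 167 and 123 to 137). Their ranges overlapped in t2iGo and not in primed H1. In 5iLA H7, ANXA2 came first at 50.6 to 77.2 RPKM, its range overlapping that of S100A11 at 42.9 to 73.4, and the 8 highest genes formed a chain in which each range overlapped the next. S100A6 was last or next to last in each shRNA culture. Together the 10 levels summed to between 509 and 663 RPKM for primed H1, between 256 and 273 for 5iLA and between 476 and 583 for t2iGo. As deposited, the 5iLA sum was thus the lowest, and its 3 libraries differed least. Median-ratio factors, by which values are divided, were 1.761 to 1.815 for primed H1, 0.5744 to 0.8081 for 5iLA and 0.8529 to 0.942 for t2iGo. Divided by these factors, the 5iLA sum is no longer the lowest, and its libraries no longer differ least.

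ANXA1, known for its part in resolving inflammation, was low in primed H1 and higher in both naive media. It stood at 1.51 RPKM with control shRNA, 2.46 with uCCNE1 and 1.79 with pCCNE1 in primed H1. In 5iLA H7 the values in the same order were 3.85, 24.4 and 17.9 RPKM, and in t2iGo H1 20.7, 51.5 and 85.01 RPKM. All 3 primed values lay below every 5iLA and t2iGo value. Both knockdown libraries were above the control of their culture in all 3 cultures, but the gap was 6.33-fold and 4.66-fold in 5iLA and 2.48-fold and 4.10-fold in t2iGo, and at most 1.63-fold in primed H1. The larger of the knockdown values came from uCCNE1 in 5iLA and from pCCNE1 in t2iGo. On the log2(RPKM + 1) scale, on which every difference below is given and which understates the change of low genes, these are differences of 2.39 and 1.96 in 5iLA, 1.27 and 1.98 in t2iGo and 0.46 and 0.15 in primed H1. Estimated reads behind the ANXA1 values were 42.0 to 791.

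ANXA2, the partner of S100A10 and a cell-surface receptor for plasminogen, was below control in 5iLA and above it in t2iGo as deposited. It was at 77.2, 54.3 and 50.6 RPKM in 5iLA H7 (control, uCCNE1, pCCNE1), with the control highest. In t2iGo H1 it was at 51.4, 68.6 and 71.1 RPKM and in primed H1 at 13.3, 21.7 and 20.4 RPKM, with the control lowest in each. The differences were -0.50 and -0.60 in 5iLA against 0.41 and 0.46 in t2iGo. The 5iLA values move toward 0 under median-ratio scaling, to -0.02 and -0.17, and under quantile normalization uCCNE1 turns to 0.03. ANXA2 has a near-identical copy that can share its reads, the processed pseudogene ANXA2P2 on chromosome 9, which was listed at 2.02 to 2.62 times the level of ANXA2 in the shRNA libraries. How reads were split between them is not given in the sources used here, so the level of ANXA2 is uncertain.

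ANXA3, found in many epithelia, gave 19.4, 26.0 and 20.9 RPKM in 5iLA H7 and 8.03, 14.9 and 22.5 RPKM in t2iGo H1. In t2iGo the control was lowest and pCCNE1 stood 2.80-fold above it, whereas the 5iLA values spanned 1.35-fold (differences of 0.41 and 0.11, or 0.89 and 0.53 after median-ratio scaling). In primed H1 the values were 7.17, 17.3 and 5.63 RPKM, so the uCCNE1 library was 2.41-fold above its control and the pCCNE1 library below it. ANXA3 was the other annexin past a log2 difference of 1 in any culture, with 1.16 (uCCNE1, primed H1) and 1.38 (pCCNE1, t2iGo H1).

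ANXA5, the annexin used to stain dying cells, differed little with the shRNAs as deposited. It was at 38.9, 44.3 and 44.9 RPKM in 5iLA H7, at 123, 137 and 135 RPKM in t2iGo H1 and at 151, 192 and 169 RPKM in primed H1. Control was the lowest of each 3, by differences of 0.13 to 0.34. After median-ratio scaling the 5iLA differences were 0.67 and 0.64. ANXA6, which has a doubled annexin core, gave 42.2, 34.6 and 26.7 RPKM in 5iLA H7 and 35.6, 31.1 and 24.1 RPKM in t2iGo H1, in both with control highest and pCCNE1 lowest. In primed H1 it read 32.1, 25.3 and 39.8 RPKM. The ranges of ANXA6 in the 3 cultures overlap. Its pCCNE1 differences were -0.64 in 5iLA (-0.22 after median-ratio scaling) and -0.55 in t2iGo, and the uCCNE1 difference in 5iLA, -0.28, becomes 0.20 after median-ratio scaling.

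**Figure D2:**
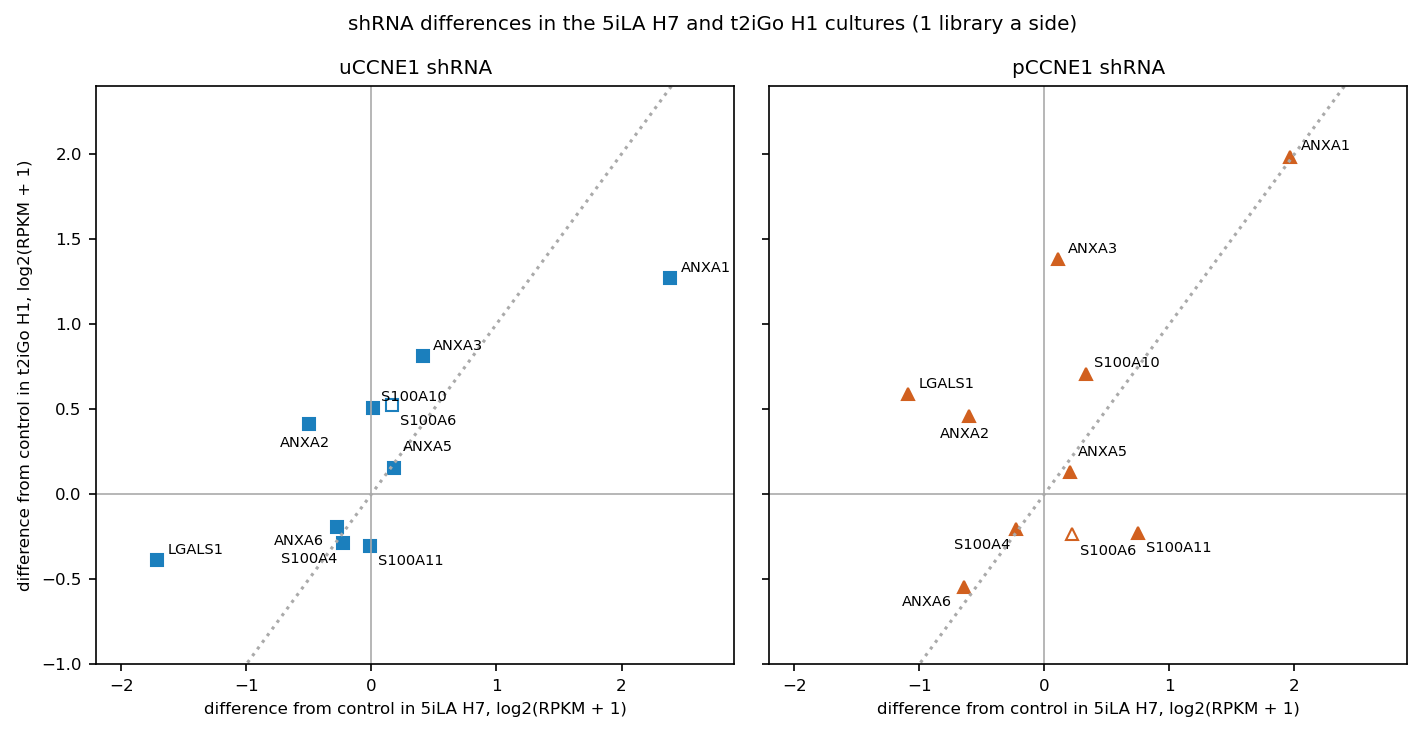
Difference from the control shRNA library in t2iGo H1 (vertical) against that in 5iLA H7 (horizontal), both in log2(RPKM + 1), for uCCNE1 (left) and pCCNE1 (right), each from 1 library a side. The dotted line marks equal differences and the open symbol S100A6, which is below the filter on low values. ANXA1 lies far up and right in both panels, LGALS1 far left, and ANXA2 above 0 in t2iGo and below 0 in 5iLA.

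S100A10 was at 24.6, 24.8 and 31.3 RPKM in 5iLA H7, at 45.3, 64.8 and 74.6 RPKM in t2iGo H1 and at 26.7, 40.9 and 24.8 RPKM in primed H1. Every t2iGo value was above every 5iLA and primed value. Its differences in t2iGo, 0.51 and 0.71, have the sign of those of ANXA2 there. In 5iLA they were 0.01 and 0.33, or 0.49 and 0.77 after median-ratio scaling, against -0.02 and -0.17 for ANXA2 on that scale. The ratio of S100A10 to ANXA2 in 5iLA read 0.319 with control, 0.457 with uCCNE1 and 0.619 with pCCNE1. That ratio was 0.881, 0.944 and 1.05 in t2iGo H1 and 2.003, 1.88 and 1.21 in primed H1, higher in every primed library than in any naive-medium library. The ratio carries the uncertainty of ANXA2.

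S100A11 gave 43.3, 42.9 and 73.4 RPKM in 5iLA H7, 167, 135 and 142 RPKM in t2iGo H1 and 217, 341 and 236 RPKM in primed H1. The 3 cultures do not overlap. As deposited, the pCCNE1 library was 1.70-fold above control in 5iLA, and in t2iGo both knockdown libraries were below control, by 1.24-fold and 1.18-fold. The differences were -0.01 and 0.75 in 5iLA, -0.30 and -0.23 in t2iGo and 0.65 and 0.12 in primed H1. Median-ratio scaling takes the 5iLA differences to 0.47 and 1.19.

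S100A4, a gene known from motile and mesenchymal cells, was nearly silent in the 5iLA libraries with shRNA, though not in the untreated 5iLA library, at 3.28 RPKM. Its values with shRNA were 0.168, 0 and 0 RPKM, which are an estimated 1.53, 0 and 0 reads. A count of 0 allows up to 0.478 RPKM in the uCCNE1 library and 0.409 in the pCCNE1 library (3 reads per library, counting error only). In t2iGo H1 it was at 12.2, 9.87 and 10.5 RPKM and in primed H1 at 33.1, 18.9 and 34.0 RPKM. The lowest t2iGo value is at least 20.6-fold higher than the largest of the 5iLA limits, and the lowest primed value at least 39.5-fold higher. No shRNA difference of S100A4 can be read in 5iLA at this depth. In t2iGo both knockdown libraries were slightly below control, by 0.29 and 0.20.

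S100A6, usually among the more abundant S100 genes of fibroblasts, was barely present. It read 0.331, 0.490 and 0.552 RPKM in 5iLA H7, 1.32, 2.33 and 0.966 RPKM in t2iGo H1 and 0.292, 0.09 and 0 RPKM in primed H1. These rest on an estimated 0 to 4.76 reads in primed H1 and 5iLA H7 and 3.96 to 14.7 in t2iGo H1, so no shRNA difference is read from it. It is the member that did not reach a mean of 1 RPKM over the shRNA libraries, and it enters no test. The other 9 did pass.

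LGALS1 was the member that lay furthest below its controls. It was at 14.4, 3.70 and 6.24 RPKM in 5iLA H7, so both knockdown libraries were below control, by 3.90-fold and 2.31-fold. In t2iGo H1 the values were 11.6, 8.62 and 17.9 RPKM, the knockdown libraries lying on either side of the control. In primed H1 they were 26.7, 3.10 and 23.8 RPKM, with the uCCNE1 library 8.59-fold below its control and the pCCNE1 library close to it. With uCCNE1, LGALS1 was thus below control in all 3 cultures, by -2.75, -1.72 and -0.39 in primed H1, 5iLA H7 and t2iGo H1, and with pCCNE1 by -1.09 in 5iLA alone among differences of that size. The smallest number of estimated reads behind an LGALS1 value was 23.0. In 5iLA the pCCNE1 difference shrinks to -0.72 after median-ratio scaling.

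Counted over the 9 members above the filter, with a log2 difference of at least 1 as the call in single libraries, 1 was higher and 1 lower with uCCNE1 in 5iLA H7 (ANXA1 and LGALS1), beside 0.528% of 12116 genes higher and 4.94% lower. With pCCNE1 there, the same pair was called, beside 0.875% higher and 4.9% lower. In t2iGo H1, ANXA1 was called higher with uCCNE1 (0.38% of genes higher, 0.636% lower) and ANXA1 and ANXA3 with pCCNE1 (0.735% higher, 2.72% lower), and no member was called lower. In primed H1, ANXA3 was called higher and LGALS1 lower with uCCNE1 (0.619% and 2.82% of genes), and 0 members were called with pCCNE1 (0.924% and 3.61%). The members were chosen on the naive-medium differences, and the knockdown libraries of a culture share 1 control, so nothing is read from these counts. The median member difference was -0.01 and 0.11 in 5iLA H7 (uCCNE1, pCCNE1), where the median of all genes was -0.34 and -0.30. It was 0.16 and 0.46 in t2iGo H1 (all genes 0.00 and -0.11) and 0.46 and 0.12 in primed H1 (all genes -0.07 and 0.01). Members just inside the call were LGALS1 at -1.09 (pCCNE1, 5iLA H7) and ANXA3 at 1.16, and just outside it ANXA3 at 0.81 (uCCNE1, t2iGo H1) and S100A4 at -0.78 (uCCNE1, primed H1).

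Markers of other cell types moved beside the ANXA1 values. The 14 fibroblast and feeder markers summed to 29.6, 60.9 and 44.9 RPKM in 5iLA H7 (control, uCCNE1, pCCNE1). In both knockdown libraries 13 of 14 were above control, and DCN and POSTN were listed at 0 in the control. Most of these values are low: 2 of 14 reached 1 RPKM in the control and 6 in each knockdown library. FN1 alone gave 24.4, 39.2 and 28.8 RPKM of the 5iLA sums. In t2iGo H1 the 14 markers summed to 247, 333 and 464 RPKM, with 13 and 12 of 14 above control, and none at 0. The share of all genes above control was not counted, for these or the other markers. Over the 12 markers above the filter, the median difference was 0.49 and 0.29 in 5iLA (all genes -0.34 and -0.30). In t2iGo it was 0.22 and 0.56 (all genes 0.00 and -0.11). In primed H1, where ANXA1 moved least, the sums were 224, 287 and 296 RPKM with 5 and 9 of 14 above control, and THY1 alone gave 94.5, 123 and 195 RPKM of them. In t2iGo the collagen gene COL3A1 was at 47.3, 86.9 and 137 RPKM and LUM, a matrix proteoglycan, at 13.9, 32.7 and 71.5 RPKM, both in the order of ANXA1. In primed H1 both stayed at or below 1.08 RPKM. As deposited, the core pluripotency markers stood below control for 8 of 8 genes in both 5iLA knockdown libraries, with sums of 723, 459 and 450 RPKM. They did so for 6 of 8 in both t2iGo ones. In 5iLA their median difference was -0.58 with uCCNE1 and -0.64 with pCCNE1, where the median of all genes was itself -0.34 and -0.30. Divided by the median-ratio factors, LIN28A, LIN28B and SALL4 lie above control in both 5iLA knockdown libraries, and DPPA4 with uCCNE1 only. POU5F1, NANOG, SOX2 and TDGF1 stay below it in both. The other marker counts were not repeated after median-ratio scaling. Trophoblast and simple epithelial markers were above control for 9 and 10 of 11 in 5iLA, and endoderm markers summed to 97.6, 160 and 155 RPKM in t2iGo. Of these markers, 6 of 11 were above control in each t2iGo knockdown library: APOA2 was at 40.6, 105 and 97.6 RPKM, and CER1 at 30.02, 6.03 and 3.25 RPKM. The part of any of these in the ANXA1 values was not tested. In bulk RNA, fewer cells of a type and less RNA per cell cannot be told apart.

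**Figure D3:**
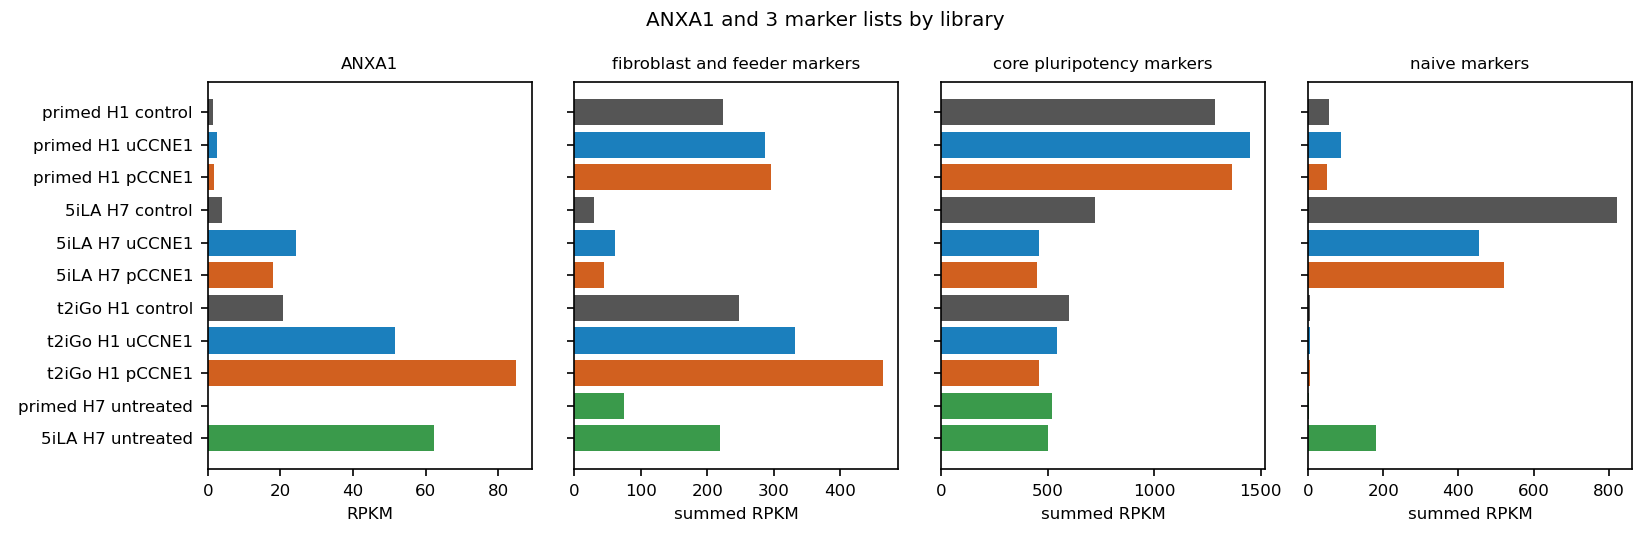
ANXA1 in RPKM and the summed RPKM of 14 fibroblast and feeder, 8 core pluripotency and 10 naive markers in each of the 11 libraries, 1 bar a library, each axis from 0. Within each shRNA culture, primed H1 included, the control has the lowest ANXA1 and the lowest fibroblast sum, and primed H1 has the lowest ANXA1 of the shRNA libraries.

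The selection rule does not name differences between cultures, but the culture means include the knockdown libraries on which the members were chosen. The p-values of members are therefore not free of that selection. Differences between cultures were tested with limma over the 9 shRNA libraries and all 12116 genes above the filter. The 3 shRNAs of a culture stand in for replicates there. The model has an shRNA term, so p-values measure only how far the shRNA differences vary between cultures. That spread is drawn toward an intensity trend over all genes. No spread between repeated cultures of the same condition enters it. The first comparison asked how t2iGo medium and primed conditions differ within the H1 line. ANXA1 was higher in t2iGo by 3.99 ± 0.35 (SE; limma, adjusted p = 1.52e-06), ANXA2 by 1.75 ± 0.25 (limma, adjusted p = 6.35e-05) and S100A10 by 0.98 ± 0.23 (limma, adjusted p = 0.00249). S100A4 fell by 1.28 ± 0.19 (limma, adjusted p = 8.87e-05) and S100A11 by 0.81 ± 0.26 (limma, adjusted p = 0.015). For each of the first 4, no primed value overlapped a t2iGo value, and the same was true of S100A11. So 3 of the 9 members were higher and 2 lower, beside 8.77% of all genes higher and 63% lower.

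That split depends on the scale. The median gene was at -0.82 in this comparison and at -0.01 after median-ratio scaling, where 32.7% of genes were higher and 34.9% lower. Members stood at a median of -0.09. After scaling, 6 members were higher and 0 lower: ANXA1 at 4.62, ANXA2 at 2.66, S100A10 at 1.92, ANXA3 at 1.44, ANXA6 at 0.85 and ANXA5 at 0.60 (limma, adjusted p from 9.81e-06 to 0.00501). S100A11 turned to 0.16 (limma, adjusted p = 0.626) and S100A4 shrank to -0.36 (limma, adjusted p = 0.0863), so neither of the falls holds there. The rises of ANXA1, ANXA2 and S100A10 hold under both scales. Without the pCCNE1 libraries of all cultures S100A10 is at 0.70 as deposited (limma, adjusted p = 0.0584). The fall of S100A11 as deposited is also lost without the uCCNE1 libraries (-0.56), without the primed H1 uCCNE1 library (-0.52), and without the uCCNE1 (-0.72) or pCCNE1 library (-0.70) of t2iGo (limma, adjusted p from 0.0698 to 0.159).

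The remaining 4 members did not pass as deposited, with limma intervals that leave room on both sides of 0. ANXA3 was at 0.59 (95% interval -0.12 to 1.30), ANXA5 at -0.37 (-0.77 to 0.04), ANXA6 at -0.09 (-0.60 to 0.43) and LGALS1 at -0.10 (-0.96 to 0.76). Without the primed H1 uCCNE1 library, ANXA3 passes at 0.95 (limma, adjusted p = 0.0329). As deposited, 8.77% of all genes were higher and 63% lower in this comparison. Beside these shares, fibroblast and feeder markers were higher for 6 and lower for 4 of 12 tested genes. Endoderm markers were higher for 6 of 6 and core pluripotency markers lower for 7 of 8. AFP, TTR, APOA1 and FGB of the endoderm list, and COL6A3 and LUM of the fibroblast list, passed the filter only through t2iGo. Their direction was thus set by the filter. The part of these markers in the differences of the members was not tested.

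**Figure D4:**
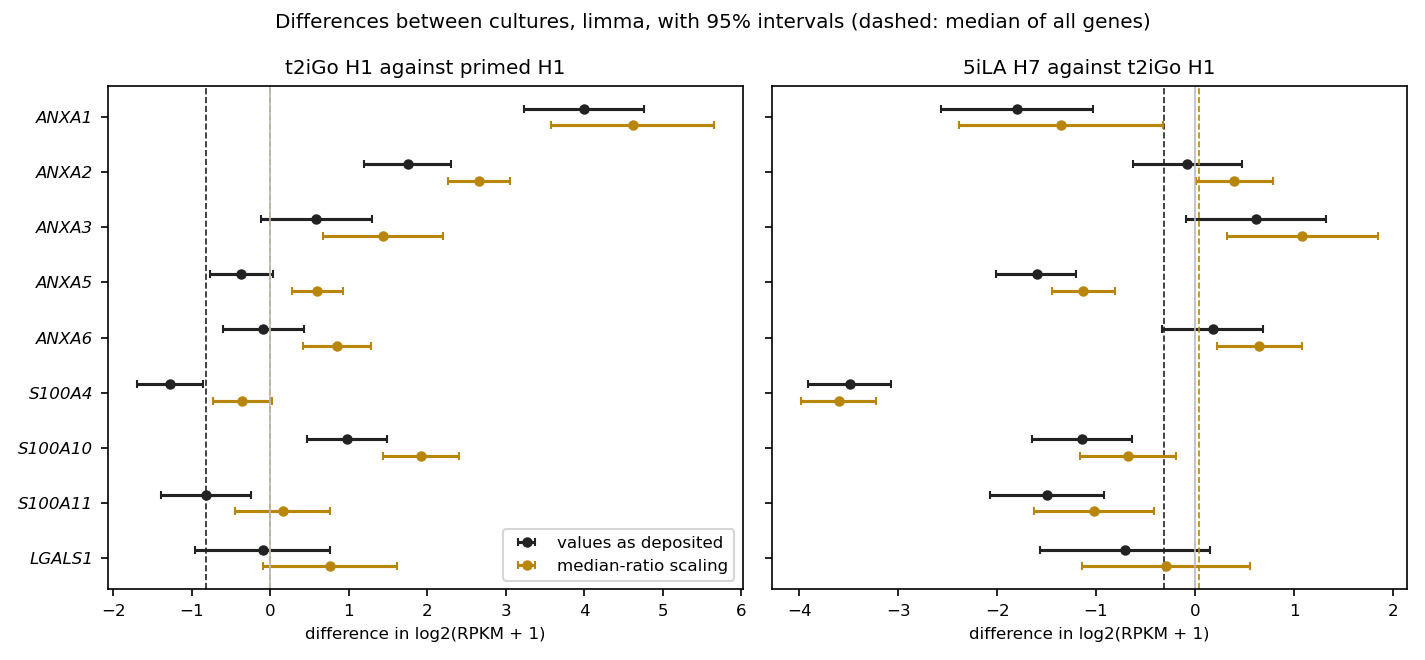
Difference between cultures in log2(RPKM + 1), with 95% intervals from limma, for the 9 members above the filter, as deposited (black) and after median-ratio scaling (ochre), t2iGo H1 against primed H1 (left) and 5iLA H7 against t2iGo H1 (right). Dashed lines give the median of all genes under each scaling, and ANXA1, ANXA2 and S100A10 lie right of 0 in the left panel under both.

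The second comparison set the naive media side by side and shares the 3 t2iGo libraries with the first, and in it medium and cell line cannot be told apart. In 5iLA H7, S100A4 was lower than in t2iGo H1 by a fitted -3.49 ± 0.19 (SE; limma, adjusted p = 1.59e-07), a value that depends on the added 1 RPKM since most 5iLA libraries are at 0. ANXA1 was at -1.80 ± 0.35 (limma, adjusted p = 0.00119), ANXA5 at -1.60 ± 0.18 (limma, adjusted p = 2.94e-05), S100A11 at -1.5 ± 0.26 (limma, adjusted p = 0.000587) and S100A10 at -1.14 ± 0.23 (limma, adjusted p = 0.00158). The 5iLA and t2iGo values did not overlap for S100A4, ANXA5, S100A11 and S100A10, whereas for ANXA1 the highest 5iLA value, 24.4 RPKM, lay above the t2iGo control at 20.7 RPKM. Thus 0 of 9 members were higher in 5iLA and 5 lower, beside 14.9% and 40.1% of all genes.

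All 5 of these falls hold after median-ratio scaling, at -3.60, -1.35, -1.13, -1.02 and -0.68 (limma, adjusted p from 1.18e-06 to 0.0313), with 29.4% of genes higher and 26.8% lower there. ANXA3 at 1.08 and ANXA6 at 0.65 then rise above the threshold (limma, adjusted p = 0.0226 and 0.0176). ANXA2 did not differ past the threshold as deposited, at -0.08 (95% interval -0.63 to 0.47), and turned to 0.40 after scaling (limma, adjusted p = 0.0751). LGALS1 was at -0.71 (95% interval -1.57 to 0.15). Leaving out 1 library gives a call to ANXA2 at -0.44 (without the 5iLA control), ANXA3 at 1.10 (without the t2iGo pCCNE1 library) and LGALS1 at -1.22 (without the t2iGo control; limma, adjusted p = 0.0337, 0.00694 and 0.0129). As deposited, the fibroblast and feeder markers were lower in 5iLA for 11 of 12 tested genes and endoderm markers for 6 of 6, beside 40.1% of all genes. Of these, AFP, TTR, APOA1, FGB, COL6A3 and LUM passed the filter only through t2iGo, so the filter set their direction. The part of these markers in the differences of the members was not tested.

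Untreated H7 cells compare 5iLA with primed culture within 1 line and without infection, a contrast the shRNA libraries do not hold, from 1 library a side and a table of its own. ANXA1 read 0.172 RPKM in primed H7 and 62.2 RPKM in 5iLA H7, a difference of 5.75 that rests on an estimated 3.38 reads in the primed library. ANXA2 went from 5.65 to 106 RPKM (4.005), S100A10 from 6.28 to 43.4 RPKM (2.61) and ANXA3 from 9.20 to 51.6 RPKM (2.37). LGALS1 went from 3.70 to 12.6 RPKM (1.53), S100A11 from 39.4 to 114 RPKM (1.504) and ANXA6 from 12.2 to 26.9 RPKM (1.08). ANXA5 at 60.9 and 98.1 RPKM and S100A6 at 3.01 and 4.99 RPKM were nearer, and S100A4 was the member that was lower in 5iLA, at 8.88 and 3.28 RPKM (-1.21). So 7 of 10 members were called higher and 1 lower, beside 11% and 3.94% of 11015 genes, with a median of 1.52 against 0.23 for all genes. After median-ratio scaling 6 were higher, ANXA6 reading 0.82.

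The pair of 5iLA controls does not give the same picture. The untreated 5iLA H7 library read 62.2 RPKM for ANXA1 and 3.28 RPKM for S100A4, and the 5iLA control shRNA library read 3.85 RPKM and 0.168 RPKM. S100A6 stood at 4.99 and 0.331 RPKM. These come from tables normalised separately, so no difference is computed. The fibroblast and feeder markers summed to 218 RPKM in the untreated 5iLA library against 74.7 in the untreated primed one, the trophoblast and simple epithelial markers to 317 against 51.2, and the naive markers to 180 against 2.96. In the 5iLA control shRNA library these sums were 29.6, 92.2 and 820 RPKM. Their part in the levels of the members was not tested.

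**Figure D5:**
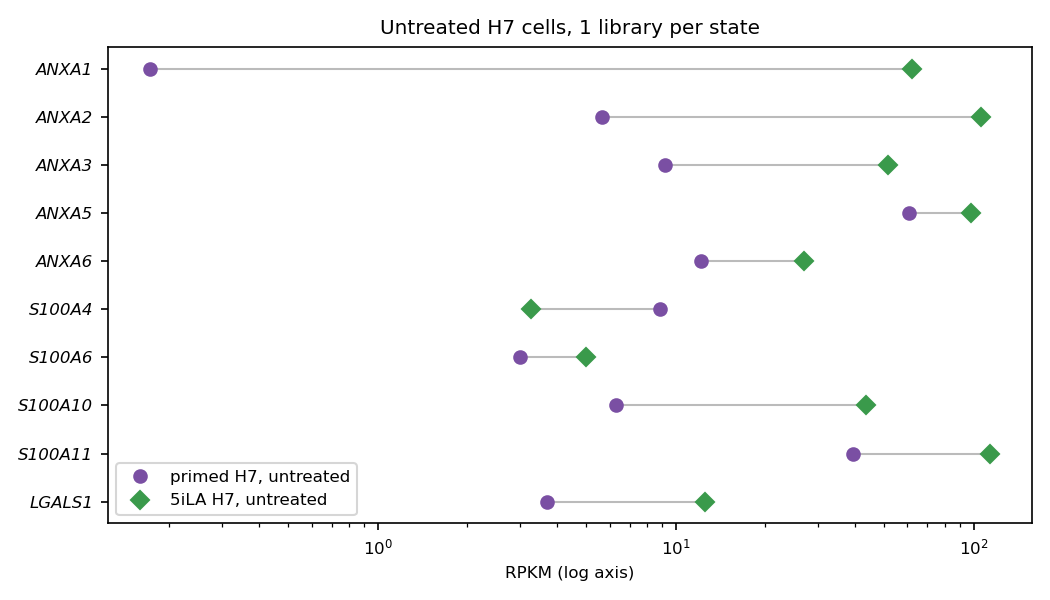
RPKM on a log axis of the 10 genes in untreated H7 cells, primed (circles) and in 5iLA (diamonds), 1 library each, joined by a line. ANXA1 spans 0.172 to 62.2 RPKM, and S100A4 is the gene whose 5iLA value lies left of its primed value.

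Of 9 other annexins, 3 passed the filter, and in t2iGo H1 against primed H1 all 3 fell: ANXA11 by 1.29, ANXA4 by 1.09 and ANXA7 by 0.69 (limma, adjusted p from 8.05e-05 to 0.0154), beside 63% of all genes lower and a median gene at -0.82. After median-ratio scaling ANXA4 was at -0.36 and no longer passed (limma, adjusted p = 0.171). ANXA7 turned to 0.25 after median-ratio scaling, and its call is lost in 5 of the 9 fits that leave libraries out (-0.72 to -0.46). In 5iLA H7 against t2iGo H1, ANXA4 rose by 1.37 and ANXA11 by 0.64 (limma, adjusted p = 0.00026 and 0.0142), where ANXA1 and ANXA5 fell, and the ANXA11 call is lost in 3 of 9 such fits (0.47 to 0.66). Of 16 other S100 genes, 4 passed the filter. S100A14, an epithelial S100 gene, rose by 2.15 in t2iGo against primed H1 (limma, adjusted p = 2.89e-05) and S100A13, which helps export growth factors, fell by 0.66 (limma, adjusted p = 0.0393), turning to 0.30 after scaling and losing its call in 6 of 9 such fits (-0.73 to -0.42). In 5iLA against t2iGo, S100P, a placental S100 gene, rose by 2.62 while S100A16 was at -2.28, S100A14 at -1.44 and S100A13 at -1.13 (limma, adjusted p from 4.67e-07 to 0.00356).

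S100P was at 5.92, 5.24 and 4.41 RPKM in 5iLA H7 and at 0 in all t2iGo and primed H1 libraries. With 7.90 RPKM in untreated 5iLA H7 and 0 in untreated primed H7, it was found in 5iLA libraries only, where S100A4 was low. S100P passed the filter only through 5iLA, so the filter set the direction of its test. Of 13 other galectins, 3 passed the filter. LGALS3 and LGALS8 fell in t2iGo against primed H1, by 1.26 and 0.93 (limma, adjusted p = 0.00173 and 0.000428), and neither call holds after median-ratio scaling, at -0.54 and -0.38 (limma, adjusted p = 0.135 and 0.0522). LGALS16, LGALS3 and LGALS8 rose in 5iLA against t2iGo, by 2.18, 1.40 and 0.48 (limma, adjusted p from 2.98e-06 to 0.0332), and the LGALS8 call is lost in all 9 fits that leave libraries out (0.43 to 0.54). LGALS16, at 2.91, 4.70 and 3.14 RPKM in 5iLA, was listed at 0 in every t2iGo and primed H1 library. It too passed the filter only through 5iLA.

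Partners and receptors of the members were a list of 25 genes, 18 of them above the filter. In t2iGo against primed H1, 3 rose and 8 fell as deposited, beside 8.77% of all genes higher and 63% lower. Among the 3 were CAV1 and PLAT, which passed the filter only through t2iGo, so the filter set their direction. After median-ratio scaling the shares of all genes were 32.7% and 34.9%, and the partners were not counted on that scale. AHNAK, the scaffold bound by the S100A10 and ANXA2 complex, rose by 2.83 (limma, adjusted p = 6.88e-06), going the way of both. LGALS3BP, a galectin-binding glycoprotein, was at -2.54, the calcium-dependent protease CAPN1 at -2.53 and PLAU, the urokinase plasminogen activator, at -1.98 (limma, adjusted p from 9.18e-07 to 4.09e-06). AHNAK read 3.32, 1.07 and 1.51 RPKM in primed H1, 8.10, 12.4 and 8.79 in 5iLA H7 and 13.8, 18.7 and 26.6 in t2iGo H1, with no overlap between cultures. In untreated H7 it was at 3.01 RPKM primed and 44.0 RPKM in 5iLA.

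In 5iLA against t2iGo, 2 partners rose and 10 fell as deposited, beside 14.9% of all genes higher and 40.1% lower. After median-ratio scaling the shares of all genes were 29.4% and 26.8%, and the partners were again not counted on that scale. ALCAM, an adhesion molecule, was at -3.32, the protease CAPN2 at -3.04, the caveola protein CAV1 at -1.87 and PLAT, the tissue plasminogen activator that binds S100A10, at -1.78 (limma, adjusted p from 9.58e-07 to 5.33e-05). CAV1 and PLAT passed the filter only through t2iGo, so the filter set their direction. The formyl peptide receptors through which ANXA1 signals, FPR1, FPR2 and FPR3, stayed at or below 0.612 RPKM in every library. In the shRNA comparisons the largest partner difference in t2iGo was ALCAM, at 8.79, 18.1 and 29.7 RPKM, in the order of ANXA1.

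The genes whose pattern was most like the mean of the 10 members, by Pearson correlation of log2(RPKM + 1) over the 9 shRNA libraries among 7174 genes with a mean of at least 5 RPKM, were ODF2L (r = 0.994), HS2ST1 (r = 0.988), CAMSAP2 (r = 0.986), CDK6 (r = 0.981) and MAP1B (r = 0.979). The 9 points share 3 cultures and their scales, so these values describe an order of cultures. The mean of the members lay between 4.31 and 4.37 for primed H1, between 3.84 and 3.94 for 5iLA and between 4.70 and 5.10 for t2iGo. ODF2L followed it, between 5.23 and 5.28 RPKM, between 2.61 and 3.55 and between 9.82 and 13.9 in the same order.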

How the data were processed

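RNA-seq values of 11 libraries were used as deposited: RPKM per gene, made by the authors in 2 tables (9 shRNA and 2 untreated libraries) that were treated as normalised separately. TopHat2 2.3.0, Cufflinks 1.2.1 and hg19 are named per the submitters' processing notes; the sources used here do not give their settings or whether counting used strand. Per the labels' protocols, RNA came from RNeasy Mini kits and libraries from Tru-Seq RNA kits.

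The members and lists were chosen with earlier results of these data known. Every member was named in every library; other listed genes were named by largest difference past the threshold, at most 4 per list and comparison (3 for single libraries, from 5 RPKM in the higher library), besides CCNE1, the marker genes quoted, S100P and the receptor genes FPR1, FPR2 and FPR3, which were singled out after their values were seen.

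Differences are of log2(RPKM + 1). Genes needed a mean of at least 1 RPKM over their table. Cultures were compared with limma 3.58.1 (R 4.3.3) with culture and shRNA as terms and an intensity trend, and Benjamini-Hochberg adjustment over all 12116 genes at 0.05. In simulated data for t2iGo against primed, 72 of 100 genes with a log2 change of 1 and 100 of 100 with 2 were recovered, with 10 of 11916 unchanged genes called. That simulation used independent noise of a fixed size, with no shRNA effect and no shift between libraries. Its rates therefore do not carry over to the deposited values. Single libraries got no test. Depth was estimated from the RPKM steps of single reads. Alternatives were a pseudocount of 0.1, other filters, median-ratio scaling, quantile normalization, other model terms and leaving libraries out. Promoters are RefSeq, GRCh38.p14, and no coordinates were carried between builds.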

Additional observations from a re-analysis of the deposited data

Results flagged for a closer look

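ANXA2 moved one way with both CCNE1 shRNAs in one culture and the opposite way in another. Its mean difference from control was lower in 5iLA H7 than in primed H1 by -1.18, and higher in t2iGo H1 than in 5iLA H7 by 0.99 (log2(RPKM + 1), 1 library a side). Both differences were not tested. The 5iLA values that enter them lie near 0 after median-ratio scaling, at -0.02 and -0.17.

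S100A11 was above control with both shRNAs in primed H1 and below it with both in t2iGo H1, the means differing by -0.65. This was not tested either. Under quantile normalization the pCCNE1 difference in t2iGo is 0.01.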

How the results depend on the processing

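No paired analysis was possible because the labels give no replicate numbers to pair by; the model's shRNA term already matches cultures by shRNA, and without it the same 3 and 2 (t2iGo H1 against primed H1) and 0 and 5 members (5iLA H7 against t2iGo H1) counted as higher and lower. In t2iGo H1 against primed H1, genes higher numbered 3963 with median-ratio scaling, 4145 with quantile normalization and 574 with a mean of at least 5 RPKM, against 1062; genes lower numbered 4229, 4009 and 4553 against 7633. Members higher were 6 under both scalings, and members lower 0 and 1. Under median-ratio scaling and quantile normalization, signs turned for ANXA5 (0.60 and 0.71), ANXA6 (0.85 and 0.81), S100A11 (0.16 and 0.25), LGALS1 (0.76 and 0.69), ANXA7 (0.25 and 0.18) and S100A13 (0.30 and 0.29). In 5iLA H7 against t2iGo H1, genes higher numbered 3566, 3132 and 967 against 1806, genes lower 3152 at the stricter filter, and members higher 2 and 1; ANXA2 turned to 0.40 and 0.16. With fewer genes tested, the stricter filter gives fewer calls; the cause of the other moves was not tested.

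Leaving out libraries, t2iGo against primed gave 720 to 1039 genes higher and 6721 to 7495 lower, with 2 to 4 members higher and 1 to 2 lower. The other comparison gave 1237 to 1741 and 3001 to 5227, with 0 to 1 and 5 to 6. Signs of uncalled members turned in such fits: ANXA3 (-0.031 to 0.98), ANXA6 (-0.28 to 0.23) and LGALS1 (-0.76 to 0.42) in t2iGo against primed, and ANXA2 (-0.44 to 0.12) in 5iLA against t2iGo. Single-library counts moved in 5iLA H7: with a pseudocount of 0.1, 2 members were lower with each shRNA, S100A4 joining LGALS1, and with either scaling 2 were higher and 0 lower with pCCNE1. Depth limits S100A4 in 5iLA and S100A6 in most libraries.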
